A study of Mus musculus with 61 samples.

Results

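Imprinted genes are expressed mainly from the copy inherited from 1 parent, and 45 of them were followed here through mouse fetal brain and liver development. The members were taken by symbol from well-known imprinted clusters, and each was looked up in the deposited RNA-seq expression table by its Ensembl identifier. A row was found for 44 of the 45, and 42 reached 1 TPM (a transcript abundance corrected for transcript length and scaled to the library's total) in at least 2 libraries, as did 18655 of all 43346 rows. The 42 genes lie in 20 imprinted clusters or loci, of which 11 hold at least 2 of the 45 named genes and 9 hold 1. Ascl2, a transcription factor of the placenta, and Kcnq1ot1, the long noncoding RNA of the Kcnq1 cluster, peaked at 1.06 and 1.02 TPM in 1 library each and stayed below the filter, and Peg13 was not analysed here. Just inside the filter were Slc22a18, a transporter that reached 1 TPM in 16 libraries, Phlda2, a placental growth restrainer that did so in 18, and Calcr, the calcitonin receptor, in 36.

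The series profiled poly(A) RNA of mouse forebrain, midbrain, hindbrain and liver, as part of a study of DNA methylation in fetal tissues. The 61 libraries used here form 31 groups of tissue and stage, 30 of them with 2 libraries: the brain regions at E10.5 (forebrain with 1 library), E11.5, E12.5, E13.5, E14.5, E15.5, E16.5 and birth (P0), and liver at the same stages from E11.5 on. The labels record no mutation or treatment for any group, and they name neither strain nor sex. There were 47 brain libraries (15 forebrain, 16 midbrain and 16 hindbrain) and 14 liver libraries.

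Imprinted expression is set by DNA methylation laid down in the egg or the sperm at a control region, which acts on several neighbouring genes at once. Many paternally expressed members, such as Igf2, Peg3 and Mest, are known to promote fetal growth, and many maternally expressed ones, such as Cdkn1c, Grb10, Igf2r and Phlda2, to restrain it. A good number are strongly expressed in fetal tissue and are known to decline after birth, and several, among them the genes of the Prader-Willi region, are expressed mainly in neurons. The values here are totals over both parental copies, so they say nothing of which copy was active.

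Some libraries stood apart. Brain libraries of E12.5, all but 1 of forebrain, had more of the liver transcript albumin (Alb) than those of the other stages. The E12.5 libraries had 3.64 and 112.36 TPM in forebrain, 77.35 to 107.18 TPM in midbrain and 28.86 to 68.8 TPM in hindbrain. Brain libraries of the other stages had at most 28.35 TPM. Without the E12.5 libraries 29 members were still called between brain and liver, as with them. The libraries labelled midbrain at E15.5 had 78.04 to 87.63 TPM of the hindbrain gene Hoxb3 and those labelled hindbrain had 0.15 to 0.24 TPM, against 0.01 to 2.08 TPM in midbrain and 22.3 to 146.61 TPM in hindbrain libraries of stages other than these. The level of Rps27, a ribosomal protein gene, split the libraries into 33 with 7.49 to 194.02 TPM and 28 with 450.89 to 1246.67 TPM. All libraries of E10.5, E12.5 and E15.5, hindbrain and liver of E13.5, midbrain of P0 and 1 of the 2 hindbrain P0 libraries were in the upper class. For 4 columns, at E16.5 and P0 in both midbrain and hindbrain, the stage in the column header differed from that of the matching sample record. The header stage was used, and these libraries carry no replicate number. In tissue RNA, fewer cells of a type and less RNA per cell cannot be told apart. The hepatocyte list, with 12 of 12 genes lower in brain, and the neuron list, with 8 of 8 higher, matched the tissue labels.

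Sequences belonging to the members are shown first for the loci on which the comparisons turn. Peg3 and Usp29 are transcribed away from each other, and their RefSeq start sites (GRCm38) lie 164 bases apart on chromosome 7. The stretch from one start to the other, both included, chr7:6730419-6730583 on the plus strand, holds 5 CpG dinucleotides and 2 copies of CCAAT, which are in capitals.
Peg3-Usp29 interval: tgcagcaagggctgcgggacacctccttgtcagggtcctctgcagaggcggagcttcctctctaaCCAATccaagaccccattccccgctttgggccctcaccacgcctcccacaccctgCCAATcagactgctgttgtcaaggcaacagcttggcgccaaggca
CCAAT on either strand stood in 15 of 55 promoter windows of the members (27.3%) and in 12289 of 32851 windows of all RefSeq genes (37.4%). Each window ran from 250 bases before to 50 bases after a start site, and 37 members had at least 1. The hexamer TGCCGC, the core of the motif bound by ZFP57, a factor that protects imprints, stood on either strand in 15 of 55 member windows (27.3%) and in 3813 of 32851 windows in all (11.6%). Member windows also held more CpG dinucleotides, with a median of 15 against 7, and no test was made of either difference.

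Several members are hosts of microRNAs, whose RefSeq sequences are given below with the seed, bases 2 to 8, in capitals. They are shown because the host transcripts H19, Igf2, Mest and Mirg are described below, and the microRNAs themselves were not measured.
H19, miR-675-5p: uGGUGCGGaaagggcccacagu
H19, miR-675-3p: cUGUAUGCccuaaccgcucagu
Igf2, miR-483-5p: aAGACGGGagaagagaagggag
Igf2, miR-483-3p: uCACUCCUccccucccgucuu
Mest, miR-335-5p: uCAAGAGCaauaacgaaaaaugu
Mest, miR-335-3p: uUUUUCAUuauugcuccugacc
Mirg, miR-453: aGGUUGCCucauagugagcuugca
Mirg, miR-496a-5p: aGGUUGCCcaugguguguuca
The annotation places 26 mature microRNAs within Mirg. They have 25 different seeds, and miR-453 and miR-496a-5p share 1 of them.

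**Figure D1:**
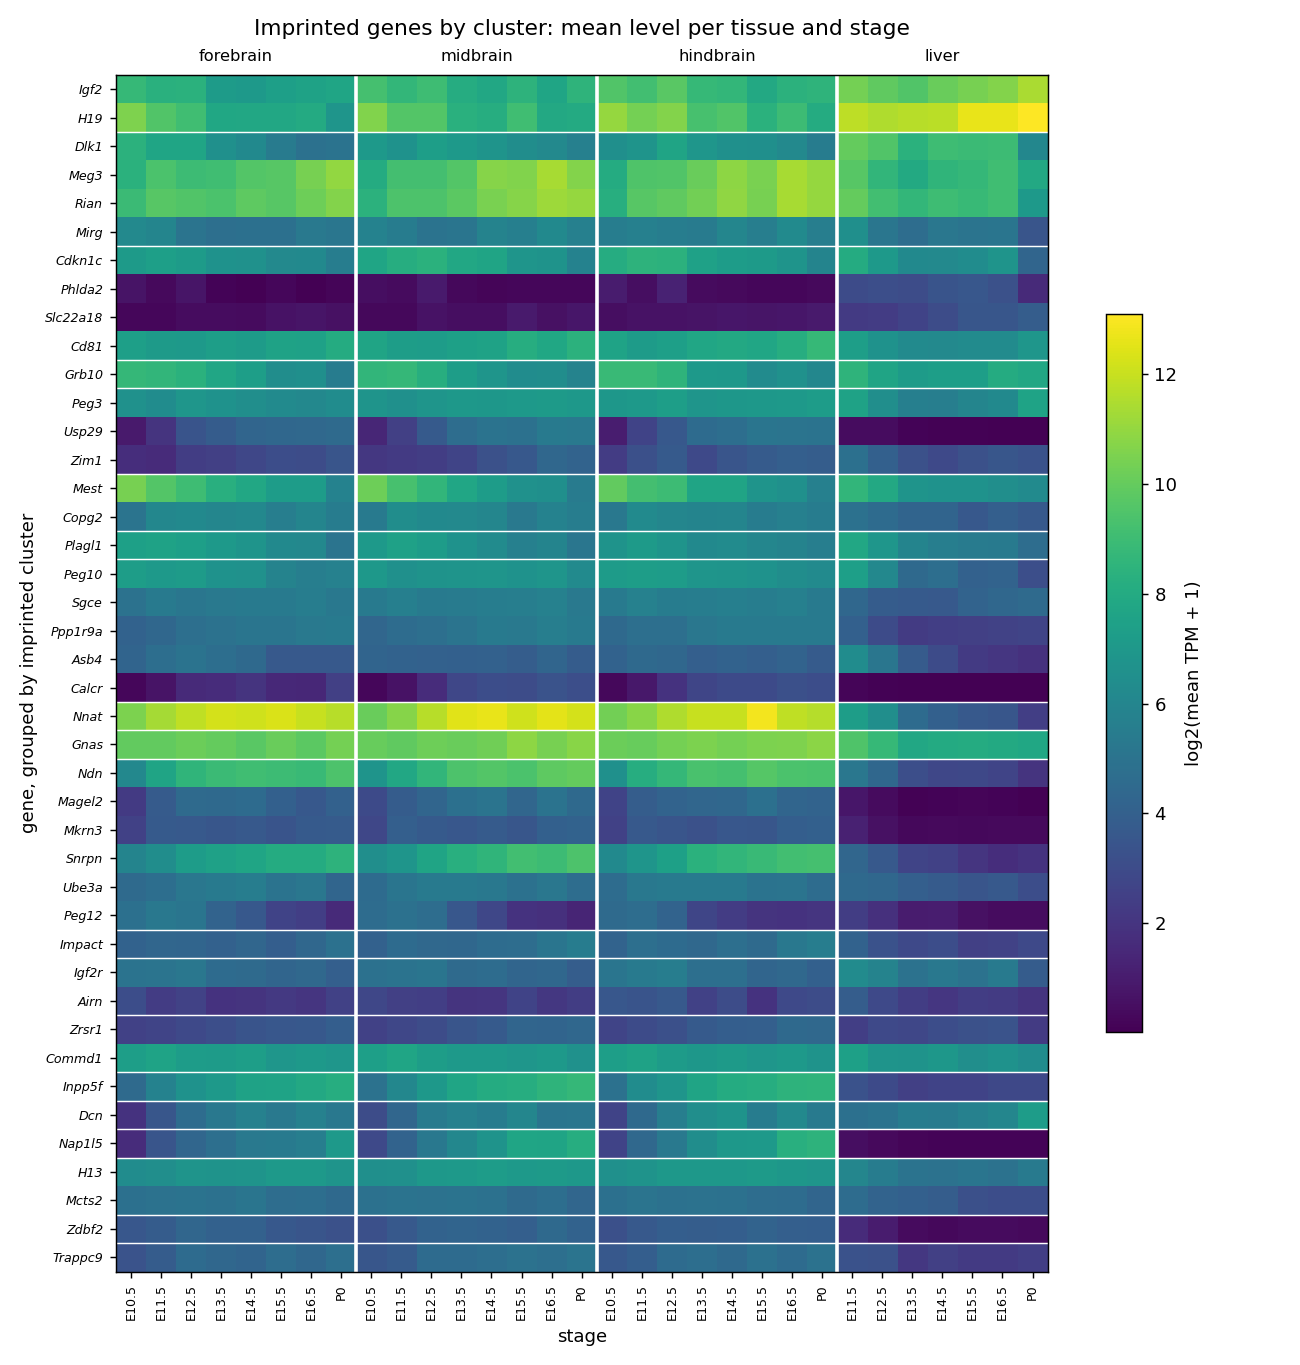
Level of the 42 imprinted genes in 31 groups of tissue and stage. Rows are genes ordered by cluster, columns are groups ordered by tissue and stage, and colour is log2(mean TPM + 1). Low levels are dark and high levels yellow: Nnat, Ndn, Snrpn, Nap1l5 and Inpp5f are brighter in the brain columns than in liver, and H19 and Igf2 are brightest in liver.

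Brain and liver differed first in which imprinted genes dominated. Nnat, which encodes the small membrane protein neuronatin, was the most abundant member in brain, with a median of 3880.45 TPM (range 971.27 to 7576.17, 47 libraries). H19, a long noncoding RNA, was the most abundant in liver, with a median of 3689.405 TPM (range 3004.92 to 8839.02, 14 libraries). The members together took 0.826% to 1.66% of all TPM in the groups of brain and 0.619% to 1.327% in those of liver. At liver P0, Igf2 and H19 alone made up 1.152%.

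Averaged over E11.5 to P0, 24 of the 42 members were higher in brain than in liver and 5 were lower (limma on log2(TPM + 1), adjusted p below 0.05 and a change of at least 1 on the log2 scale). Of all genes tested, 44.0% were higher and 9.33% lower by the same rule, and 53.3% were called in either direction. The median log2 difference was 1.34 over the members and 0.82 over all genes. That overall shift depended on the scaling. With median-of-ratios scaling the median of all genes was 0.02 and the members called were 12 higher and 10 lower, and with quantile normalization it was -0.01 with 14 higher and 10 lower. The calls of 16 members stood under all 3 scalings, 11 of them higher in brain (Nnat, Nap1l5, Ndn, Snrpn, Inpp5f, Magel2, Usp29, Zdbf2, Mkrn3, Ppp1r9a and Calcr) and 5 lower (H19, Phlda2, Slc22a18, Dlk1 and Igf2). The share of all genes called is not given for the other scalings, so these counts are not read as a trait of the members. For 15 members every brain library lay above every liver library and for 3 every brain library lay below, against 29.8% and 5.93% of all genes. Nap1l5, Magel2, Usp29 and Calcr, counted as higher in brain in both ways, had at most 0.45, 0.91, 0.51 and 0.17 TPM in any liver library. They passed the filter through brain alone, so their direction is not taken as support. The labels call libraries of a group replicates without saying whether they came from separate animals, so the p-values measure the spread between these libraries, which may be technical.

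**Figure D2:**
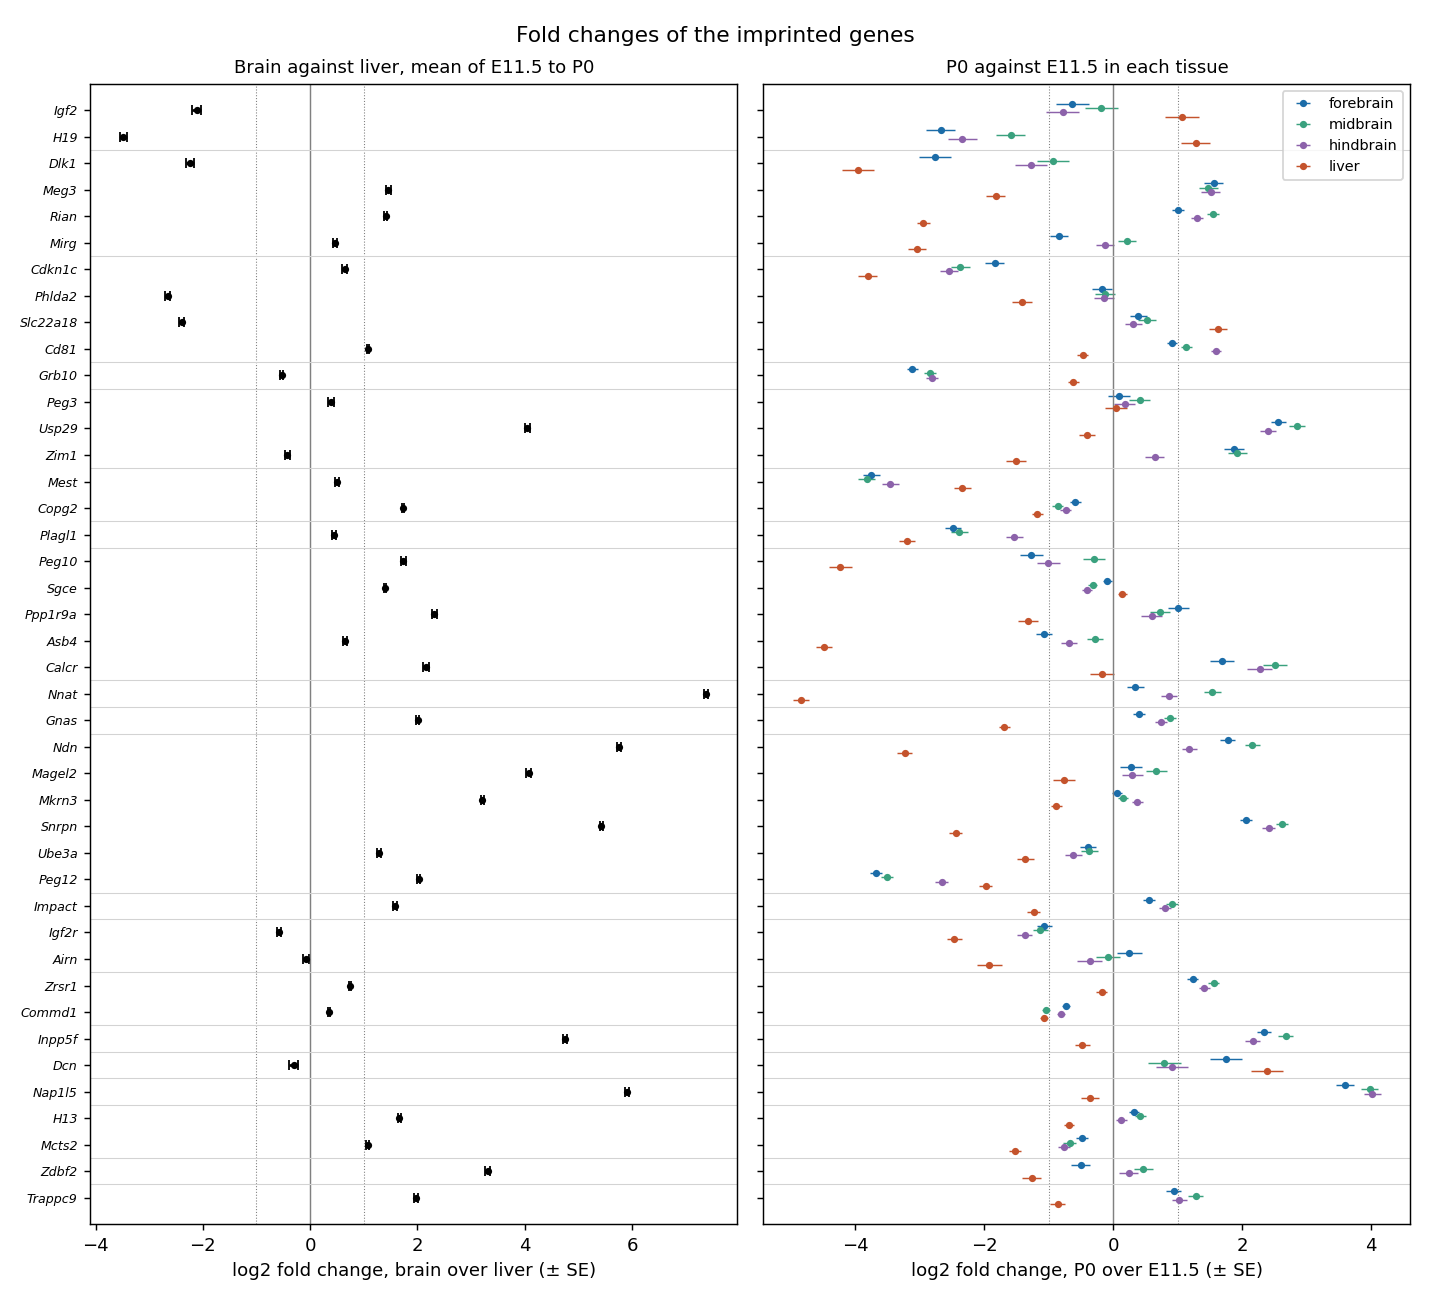
Differences of each member on the log2(TPM + 1) scale, with standard errors. The left panel gives brain minus liver over E11.5 to P0 and the right panel P0 minus E11.5 with 1 colour per tissue, and dotted lines mark the fold threshold. In the left panel Nnat lies farthest to the right in brain against liver at 7.38 and H19 farthest to the left at -3.48.

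The Igf2-H19 cluster set liver apart. Igf2 (ENSMUSG00000048583.12, mm10 chromosome 7, 142650766 to 142666816, minus strand) encodes a fetal growth factor and is paternally expressed, and H19 (ENSMUSG00000000031.11, 142575529 to 142578143, minus strand) is its maternally expressed neighbour. Igf2 ranged over 111.35 to 943.07 TPM in the 42 brain libraries of E11.5 to P0 and over 726.1 to 3118.51 TPM in the 14 liver libraries, and the groups overlapped. H19 ranged over 112.49 to 1694.0 TPM in brain and over 3004.92 to 8839.02 TPM in liver, with no overlap. The brain minus liver difference was -2.12 ± 0.08 for Igf2 (log2, SE, adjusted p = 8.6e-24) and -3.48 ± 0.07 for H19 (adjusted p = 1.86e-32).

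Igf2 in liver first declined and then climbed, with 1291.0 and 1319.67 TPM at E11.5, 779.42 and 726.1 at E13.5, 1638.93 and 1598.07 at E16.5 and 3118.51 and 2395.64 at P0. H19 in liver had 3537.23 and 3678.55 TPM at E11.5, 6422.79 and 6526.38 at E15.5 and 8839.02 and 8692.22 at P0. Both rose in liver between E11.5 and P0, Igf2 by 1.07 ± 0.26 and H19 by 1.28 ± 0.23 on the log2 scale (adjusted p = 0.000338 and 3.91e-06). Without the first liver P0 library the change of Igf2 was 0.88 and below the fold threshold, and under quantile normalization that of H19 was 0.51 and not called. The hepatocyte list moved with them, 11 of its 12 genes being higher at P0, with a summed level of 161662.89 to 172089.16 TPM at P0, against 14013.67 to 15112.38 TPM for E11.5. None of its genes was at 0 in those libraries. Its part in the rise was not tested.

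In brain H19 went the other way. Forebrain had 112.49 and 115.71 TPM of H19 at P0, against 726.31 and 745.84 TPM at E11.5, and the single E10.5 library had 1492.61 TPM. H19 fell in all 3 regions, by 2.68 ± 0.23 in forebrain, 1.59 ± 0.23 in midbrain and 2.35 ± 0.23 in hindbrain on the log2 scale. It was the 1 member lower at P0 in every brain region and higher in liver. Igf2 was not called in any region, with P0 minus E11.5 differences of -0.64, -0.18 and -0.78 in forebrain, midbrain and hindbrain. In hindbrain the P0 libraries held 205.02 and 520.48 TPM of Igf2, against 541.4 and 584.27 TPM at E11.5. Without the unnumbered P0 library, the higher of the pair, the hindbrain difference was -1.45 and called.

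That hindbrain P0 pair also differed in H19 (350.56 TPM in the unnumbered and 183.55 in the first library), in Dcn, the matrix proteoglycan decorin (52.83 and 30.91 TPM), and in Cdkn1c (70.88 and 48.48 TPM). These 4 members and 1437 of the 18655 genes differed by at least 0.5 on the log2 scale between these libraries, and the unnumbered one had the higher Rps27. The list of fibroblast and meninges markers fell with H19 in brain, 8 of its 10 genes being lower and 1 higher at P0 in each region. Its summed level was 182.15 to 200.65 TPM at P0, against 980.32 to 1014.6 TPM at E11.5, in forebrain, 255.65 to 263.77 TPM at P0, against 1209.98 to 1215.06 TPM at E11.5, in midbrain. In hindbrain it was 201.06 to 383.15 TPM at P0, against 1320.3 to 1405.43 TPM for E11.5. None of its genes was at 0 in both libraries of any of these groups. Of 10 skeletal muscle and cartilage markers 2, 3 and 7 were lower at P0 in forebrain, midbrain and hindbrain. In the same order 1, 1 and 0 were higher, with medians of 0.09, -0.19 and -1.67. The part of these lists in the fall of H19 was not tested.

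Within the cluster, the ratio of H19 to Igf2 separated the tissues. The mean log2 ratio was 0.47 ± 0.52 in brain (SD, 42 libraries) and 1.83 ± 0.30 in liver (14 libraries), and the libraries did not overlap. The difference of -1.36 had an adjusted p = 1.6e-05 in a two-sided permutation test of 100000 resamples within stage, adjusted over the 16 pairs tested, and its raw p of 1e-05 is the smallest these resamples can give. The brain libraries of the regions were treated as independent, since the labels do not tie regions to embryos. In forebrain the ratio of the mean TPM declined through 3.45 at E10.5, 2.32 at E11.5 and 1.41 at E16.5 to 0.559 at P0. In liver it stayed between 2.76 and 4.74 at every stage. At P0 Igf2 thus exceeded H19 in all 3 brain regions, with H19 to Igf2 ratios of 0.559, 0.699 and 0.736 in forebrain, midbrain and hindbrain.

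**Figure D3:**
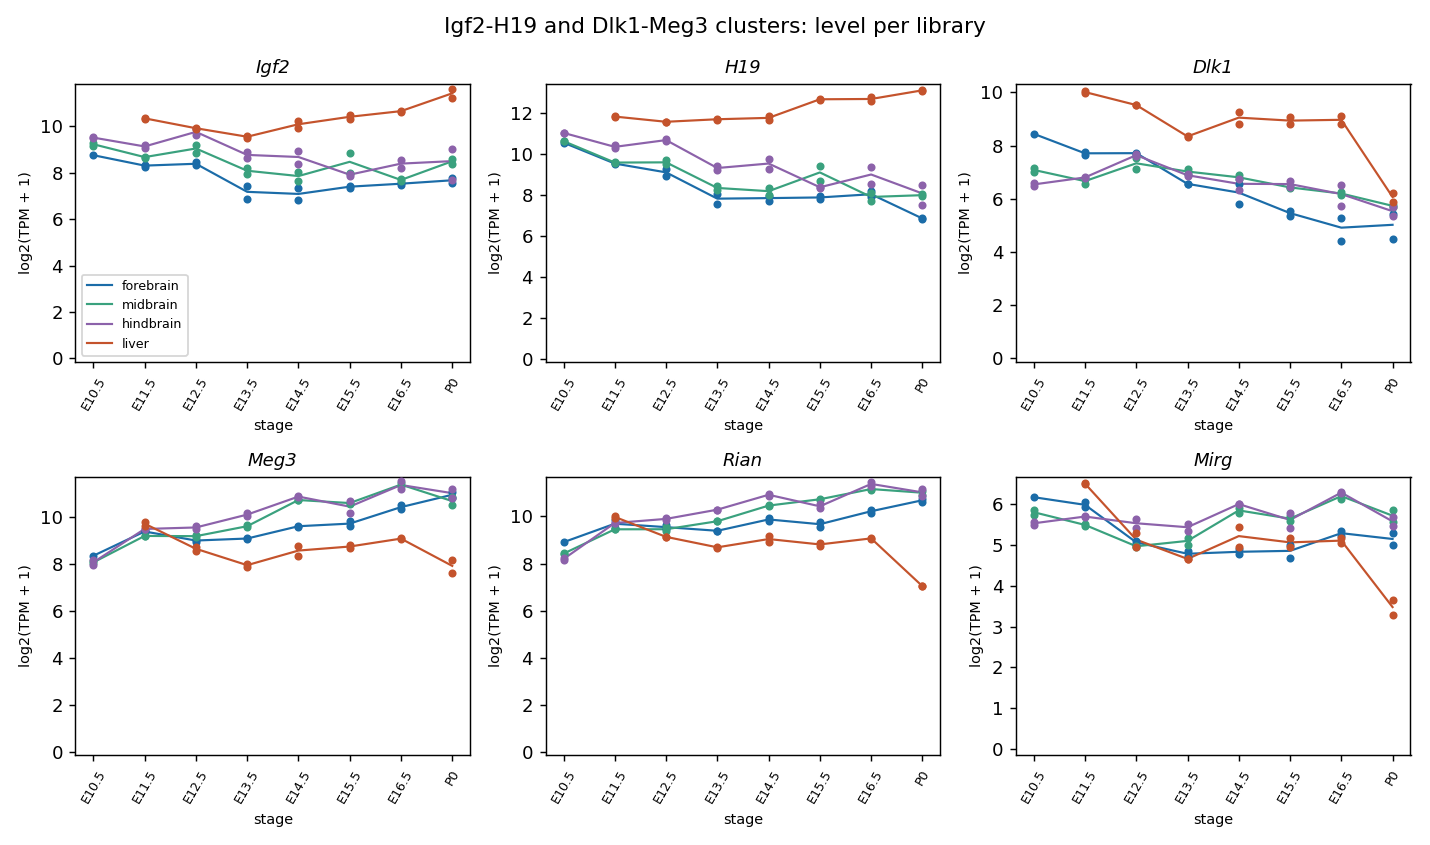
Level of Igf2, H19, Dlk1, Meg3, Rian and Mirg in each library by stage. The vertical axis is TPM on a log scale, points are libraries and lines join the group means of each tissue. H19 declines to 112.49 and 115.71 TPM in forebrain at P0 and climbs to 8839.02 and 8692.22 TPM in liver, and Dlk1 in liver drops between E16.5 and P0.

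The Dlk1-Meg3 cluster on chromosome 12 pairs a paternally expressed gene with maternally expressed noncoding RNAs. Dlk1 (ENSMUSG00000040856.13, mm10 chromosome 12, 109452823 to 109463336) encodes a Notch-like membrane protein of immature cells, and Meg3, Rian and Mirg are long noncoding RNAs that carry small nucleolar RNAs or microRNAs. Dlk1 was lower in brain than in liver by 2.24 ± 0.08 on the log2 scale (adjusted p = 4.63e-25). Meg3 and Rian were higher by 1.46 ± 0.05 and 1.41 ± 0.03, but by only 0.25 and 0.20 with median-of-ratios scaling, where neither was called.

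Between E11.5 and P0 Meg3 and Rian rose in brain, and Dlk1 fell in forebrain and hindbrain. Forebrain Meg3 had 2142.97 and 1816.57 TPM at P0, against 670.35 and 665.17 TPM at E11.5. Forebrain Dlk1 had 41.4 and 21.28 TPM at P0, against 200.51 and 215.74 TPM at E11.5. Meg3 rose in all 3 regions, by 1.56, 1.48 and 1.51 in forebrain, midbrain and hindbrain, each ± 0.15 on the log2 scale, and Rian rose by 1.005, 1.55 and 1.29, each ± 0.10. The forebrain value of Rian was 0.84 to 0.95, below the fold threshold, when either the first E11.5 or the first P0 library was left out. Dlk1 fell in forebrain by 2.77 ± 0.25 and in hindbrain by 1.28 ± 0.25, and its midbrain difference of -0.93 was not called. Mirg did not follow Meg3 and Rian: its differences of -0.84, 0.22 and -0.12 in forebrain, midbrain and hindbrain were below the fold threshold, and that in forebrain, in the direction of Dlk1, had an adjusted p of 1.68e-06 in limma.

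In liver all 4 genes of this cluster fell between E11.5 and P0. Dlk1 held 1008.59 and 1059.48 TPM at E11.5, 548.13 and 453.4 at E16.5 and 73.78 and 57.91 at P0, a P0 minus E11.5 difference of -3.96 ± 0.25 (adjusted p = 1.71e-16). Most of that drop came after E16.5, with a P0 minus E16.5 difference of -2.91 ± 0.25. Rian in liver had 1040.98 and 979.02 TPM at E11.5, 526.11 and 545.72 at E16.5 and 131.66 and 129.05 at P0. Mirg fell by 3.04 ± 0.14 and Meg3 by 1.82 ± 0.15 between E11.5 and P0, and Meg3 was -0.64 and uncalled with median-of-ratios scaling.

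Averaged over stages, the proportion of Rian to Meg3 did not pass the test between the tissues, with a mean log2 ratio of 0.12 ± 0.23 in brain and 0.17 ± 0.52 in liver (SD), a difference of -0.05 with adjusted p = 0.541 in the permutation test. By stage the ratio of mean TPM moved in liver, with 1.2 at E11.5, 1.67 at E13.5, 0.991 at E16.5 and 0.541 at P0, and lay between 0.833 and 1.47 in the brain regions. The ratio of Meg3 to Dlk1 differed by 3.70 between brain and liver (adjusted p = 1.6e-05), although single libraries overlapped. In forebrain it climbed through 0.938 at E10.5, 3.21 at E11.5 and 47.3 at E16.5 to 63.2 at P0. In liver it stayed at 0.544 to 1.08 through E16.5 and reached 3.66 at P0. Mirg relative to Meg3 differed by -0.997 in brain minus liver (adjusted p = 1.6e-05).

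Of the growth restrainers of the Kcnq1 cluster, Cdkn1c fell in all 4 tissues between E11.5 and P0, and Phlda2 was called lower in liver and in no brain region. Cdkn1c, the cell cycle inhibitor p57, fell by 1.84, 2.37, 2.55 and 3.81 in forebrain, midbrain, hindbrain and liver, each ± 0.15 on the log2 scale. Liver had 18.24 and 18.45 TPM at P0, against 281.83 and 259.51 TPM at E11.5. Liver Cdkn1c had already declined to 66.18 and 76.1 TPM at E14.5, stood at 113.18 and 106.64 TPM at E16.5, and the P0 minus E16.5 difference was -2.52 ± 0.15. Phlda2 was nearly confined to liver among these tissues, with 0.0 to 1.69 TPM in brain and 1.84 to 11.05 TPM in liver and no overlap. Slc22a18 also did not overlap, with 0.15 to 1.21 TPM in brain and 3.43 to 15.63 TPM in liver. In liver both neighbours had higher means at E15.5 than at E11.5. They were 10.905 against 6.915 TPM for Phlda2 and 10.3 against 3.635 TPM for Slc22a18. Phlda2 then had 8.605 TPM at E16.5 and 1.975 TPM at P0. Between E11.5 and P0 Phlda2 thus fell by 1.41 ± 0.15 and Slc22a18 rose by 1.63 ± 0.14. That change of Phlda2 was -0.53 and -0.84, and not called, under the scaling alternatives. In forebrain, midbrain and hindbrain Phlda2 differed by -0.17, -0.12 and -0.15, and the change in brain minus that in liver was 1.27, or 0.43 and 0.61 and uncalled under the scaling alternatives. The log2 ratio of Phlda2 to Cdkn1c was lower in brain by 3.30 (adjusted p = 1.6e-05, no overlap). Brain Phlda2 was near or below the 1 TPM added before taking logs, so the size of that difference depends on the added value. Cd81, a tetraspanin at the edge of the cluster, rose in midbrain by 1.14 ± 0.08 and in hindbrain by 1.60 ± 0.08, and its forebrain difference of 0.91 was below the fold threshold.

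Grb10 and Igf2r restrain signalling by insulin-like growth factors, Grb10 as an adaptor under the receptors and Igf2r by removing IGF2 from the cell surface. Grb10 (ENSMUSG00000020176.13, mm10 chromosome 11, 11930508 to 12038683) fell in all 3 brain regions, by 3.12, 2.84 and 2.81 in forebrain, midbrain and hindbrain, each ± 0.09. Forebrain had 47.02 and 42.86 TPM at P0, against 351.95 and 448.06 TPM at E11.5. Liver had 230.36 and 237.43 TPM at P0, against 329.61 and 393.48 TPM at E11.5, a difference of -0.62 ± 0.09 that was below the fold threshold. The fall in brain exceeded that in liver by 2.30 ± 0.10 (adjusted p = 1.22e-20). Igf2r fell in all 4 tissues, by 1.07, 1.13 and 1.37 in forebrain, midbrain and hindbrain and by 2.47 in liver, each ± 0.12. The forebrain value was -0.997 to -0.83, below the fold threshold, without either the first P0 or the second E11.5 library. Airn, the noncoding RNA transcribed across the start of Igf2r on the opposite strand, overlaps it over 28354 bases, and no strand setting of the counting is given, so reads could be shared. The ratio of Airn to Igf2r was higher in brain by 0.51 (adjusted p = 5.33e-05).

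**Figure D4:**
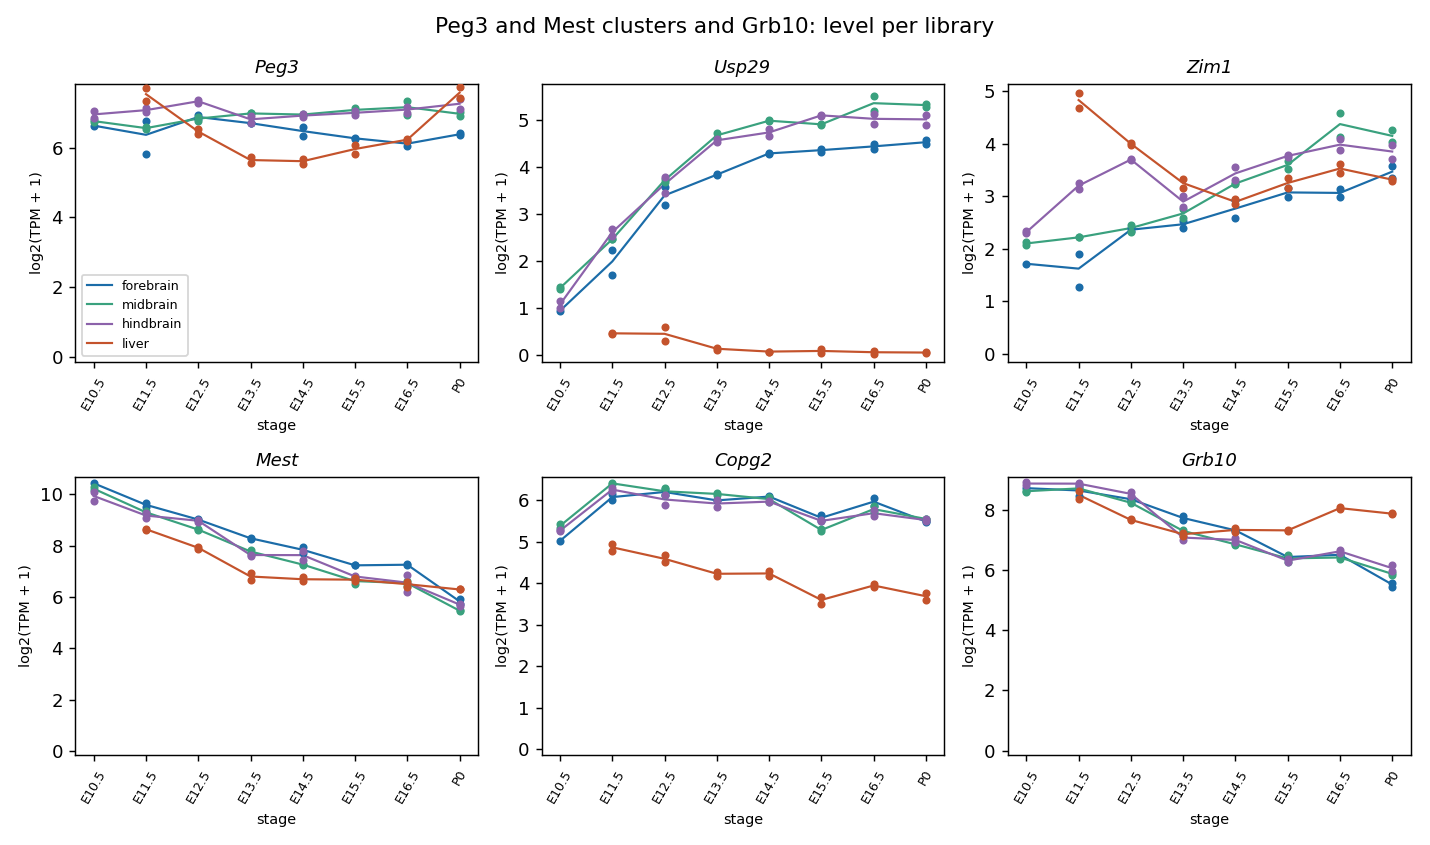
Level of Peg3, Usp29, Zim1, Mest, Copg2 and Grb10 in each library by stage. The vertical axis is log2(TPM + 1), points are libraries and lines join group means. Usp29 climbs in the brain regions to between 21.42 and 39.87 TPM at P0 and stays at or below 0.51 TPM in liver, and Mest and Grb10 decline in brain.

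Peg3 and Usp29 shared a start region, shown above, but not a pattern. Peg3 (ENSMUSG00000002265.11, mm10 chromosome 7, 6703892 to 6730431, minus strand) encodes a zinc finger protein and Usp29 (6730578 to 6967219, plus strand) a ubiquitin-specific protease, and both are paternally expressed. Peg3 ranged over 55.68 to 168.36 TPM in brain and 45.35 to 211.28 TPM in liver, and its P0 minus E11.5 differences of 0.09, 0.41, 0.18 and 0.05 in forebrain, midbrain, hindbrain and liver were not called as deposited. With median-of-ratios scaling the liver difference was 1.23 and called higher. The lowest brain value was the first forebrain E11.5 library, whose pair had 107.77 TPM. Liver Peg3 was nonetheless not flat, with 160.7 and 208.92 TPM at E11.5, 45.35 and 50.52 at E14.5, 72.37 and 75.84 at E16.5 and 211.28 and 169.54 at P0. Its P0 minus E16.5 difference in liver was 1.34 ± 0.17 (adjusted p = 2.06e-08).

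Usp29 lay above liver in every brain library, with 2.24 to 44.41 TPM in brain and 0.02 to 0.51 TPM in liver. It rose in all 3 regions, by 2.56, 2.86 and 2.399, each ± 0.12. Forebrain had 22.82 and 21.42 TPM at P0, against 2.24 and 3.71 TPM at E11.5. The ratio of Usp29 to Peg3 was 3.66 higher in brain on the log2 scale (adjusted p = 1.6e-05) with no overlap between libraries. Every liver value of Usp29 lay below the 1 TPM added before taking logs, so the size of that difference depends on the added value. In forebrain that ratio of mean TPM went through 0.00936 at E10.5 and 0.129 at E13.5 to 0.268 at P0, and in liver it was at most 0.00418. Zim1, a maternally expressed zinc finger gene of the cluster, rose in forebrain and midbrain by 1.88 and 1.93, each ± 0.15. In liver it fell by 1.51 ± 0.15, a call that neither scaling alternative kept.

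Mest, a hydrolase-like enzyme known for its fetal growth phenotype, showed the largest fall of the 42 members in each brain region. Mest (ENSMUSG00000051855.11, mm10 chromosome 6, 30723547 to 30748465) had 51.98 and 60.15 TPM in forebrain at P0, against 730.58 and 807.16 TPM at E11.5, and 1375.71 TPM in the E10.5 library. It fell by 3.76, 3.83, 3.46 and 2.34 in forebrain, midbrain, hindbrain and liver, each ± 0.13. Its neighbour Copg2, a coat protein subunit whose 3′ end overlaps Mest over 912 bases on the opposite strand, lay above liver in every brain library (37.36 to 84.89 TPM in brain and 10.4 to 30.11 TPM in liver). The brain minus liver difference of Copg2 was 1.73, or 0.565 and 0.677 and uncalled under the scaling alternatives. Its P0 minus E11.5 difference was not called in any brain region. The ratio of Copg2 to Mest therefore climbed in forebrain through 0.023 at E10.5 and 0.203 at E13.5 to 0.785 at P0, and reached 1.06 in midbrain at P0. In liver it stayed between 0.071 and 0.174. The mean ratio was 1.23 higher in brain on the log2 scale (adjusted p = 1.6e-05). Plagl1, a growth-related zinc finger factor, also fell in all 4 tissues, by 2.49, 2.39, 1.53 and 3.20, each ± 0.13.

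In the Peg10-Sgce cluster on chromosome 6, 3 of the 5 genes kept were lower in liver at P0 than at E11.5, and Peg10 and Asb4 were so under all 3 scalings. Peg10, a gene derived from a retrotransposon and required for the placenta, had 8.63 and 7.32 TPM in liver at P0, against 166.87 and 167.69 TPM at E11.5, a difference of -4.23 ± 0.17. Asb4, a ubiquitin ligase adaptor, had 2.86 and 2.45 TPM at P0, against 80.94 and 80.69 TPM at E11.5 in liver, a difference of -4.49 ± 0.12. Sgce, the sarcoglycan that shares its start region with Peg10, was not called in liver, with a difference of 0.14 ± 0.07, and was called higher at 1.29 with median-of-ratios scaling. The ratio of Sgce to Peg10 in liver thus climbed through 0.12 at E11.5 and 1.06 at E15.5 to 2.78 at P0. Averaged over stages, that ratio did not pass the test between brain and liver (difference -0.34, adjusted p = 0.0691), and without the E12.5 libraries it was -0.51 and passed (adjusted p = 0.0158). In forebrain Peg10 and Asb4 were called lower at P0, at -1.27 and -1.07, and neither call stood without the second E11.5 or the second P0 library. Ppp1r9a, the actin-binding protein neurabin, was lower in liver at P0, at -1.33, but at -0.27 and -0.54 it was not called under the scaling alternatives. It was higher in brain than in liver by 2.32 ± 0.05, and Calcr rose in all 3 brain regions by 1.69, 2.52 and 2.27, each ± 0.19. Calcr had 6.23 and 2.81 TPM in forebrain at P0, against 0.6 and 0.65 TPM at E11.5, and 0.0 to 0.17 TPM in liver, where its P0 minus E11.5 difference of -0.17 was not called.

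All 6 members of the Prader-Willi and Angelman region on chromosome 7 were called higher in brain than in liver, over a wide range of differences. Ndn, the neuronal growth suppressor necdin, had 196.7 to 1026.6 TPM in brain, against 2.83 to 36.36 TPM for liver, a difference of 5.75 ± 0.04. Snrpn, a spliceosome protein of neurons, had 84.18 to 701.44 TPM in brain, against 2.04 to 19.53 TPM for liver, a difference of 5.43 ± 0.03. Magel2 and Mkrn3 were higher in brain by 4.07 ± 0.05 and 3.21 ± 0.02, and for these 4 genes every brain library lay above every liver library. Peg12, also of this region, was higher by 2.02, its libraries overlapped (1.49 to 39.72 TPM in brain, against 0.29 to 4.36 TPM for liver), and it was not called under quantile normalization, at 0.96. Snurf, which shares 9601 bases and its strand with Snrpn, was higher by 5.45 ± 0.06, and reads of the pair may have been split between them.

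With stage, Ndn and Snrpn went opposite ways in the tissues. Midbrain Snrpn had 676.04 and 701.44 TPM at P0, against 115.11 and 107.44 TPM at E11.5, and liver Snrpn had 3.36 and 2.16 TPM at P0, against 18.94 and 19.53 TPM at E11.5. Snrpn rose by 2.06, 2.62 and 2.41 in forebrain, midbrain and hindbrain and fell by 2.45 in liver, each ± 0.10. Ndn rose by 1.77, 2.16 and 1.18 and fell by 3.23 in liver, each ± 0.11. Peg12, a Frat-family gene of the same region, did not follow them and fell in brain by 3.68, 3.51 and 2.66 and in liver by 1.98, each ± 0.10. Forebrain Peg12 had 2.02 and 1.91 TPM at P0, against 34.4 and 39.72 TPM at E11.5. Its ratio to Ndn in forebrain declined through 0.406 at E10.5 and 0.0341 at E13.5 to 0.0028 at P0, while in liver it stayed between 0.0698 and 0.178. Ube3a, the ubiquitin ligase of the region, was higher in brain by 1.28 ± 0.04 and its P0 minus E11.5 difference was not called in any brain region. The difference from liver was 0.13 and 0.18, and uncalled, under the scaling alternatives.

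Nnat and Gnas, both on chromosome 2, were the most abundant protein-coding members in brain. Nnat (ENSMUSG00000067786.12, mm10 157560078 to 157562522) had 1633.74 to 7576.17 TPM in brain at E11.5 to P0, against 4.06 to 162.44 TPM for liver, a difference of 7.38 ± 0.04 (adjusted p = 1.76e-49). In liver it dropped through 162.44 and 150.05 TPM at E11.5, 25.17 and 21.23 at E13.5 and 10.76 and 9.88 at E16.5 to 4.06 and 4.91 at P0, a fall of 4.85 ± 0.13 on the log2 scale. In forebrain Nnat peaked at E15.5 with 5480.95 and 5174.46 TPM, and had 3744.26 and 2897.16 TPM at P0, against 2793.05 and 2408.07 TPM at E11.5. It rose in midbrain by 1.54 ± 0.13 and was not called in forebrain or hindbrain, at 0.35 and 0.86. Nnat lies inside the span of Blcap on the opposite strand, and any sharing of reads between them was not tested. Gnas, the stimulatory G protein locus, had 818.86 to 1915.43 TPM in brain and 205.05 to 730.88 TPM in liver. Its brain minus liver difference was 2.01, or 0.80 and uncalled with median-of-ratios scaling.

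Among the remaining loci, Nap1l5, Inpp5f, Zdbf2, Trappc9 and H13 lay above liver in every brain library. Brain minus liver differences were 1.98 for Trappc9 and 1.66 for H13. Under the scaling alternatives they were 0.911 and 0.785 for Trappc9 and 0.468 and 0.786 for H13, and uncalled. Nap1l5, a nucleosome assembly protein relative, had the largest rise in brain of all members, by 3.60, 3.98 and 4.02 in forebrain, midbrain and hindbrain, each ± 0.14. Hindbrain had 372.24 and 325.7 TPM at P0, against 21.27 and 19.78 TPM at E11.5, while liver stayed at 0.08 to 0.45 TPM. Inpp5f, a phosphoinositide phosphatase, rose by 2.34, 2.68 and 2.17, each ± 0.11, and Zrsr1, a retrocopy related to a splicing factor, by 1.24, 1.56 and 1.42, each ± 0.09. Zrsr1 and its host Commd1 lie on opposite strands, and Commd1 was lower at P0 in midbrain by 1.05 ± 0.06. Impact, a regulator of translation, was higher in brain by 1.58 ± 0.03 and uncalled under both scaling alternatives. Dcn rose in forebrain by 1.75 ± 0.25 and in liver by 2.39 ± 0.25. Mcts2 is a retrocopy within H13, and its longest transcript matched that of Mcts1 at 83.9% of 678 aligned bases, so short reads could be assigned to either. Zrsr1 and Zrsr2 matched at 74.5% of 373 aligned bases.

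Taking the brain regions one by one, P0 against E11.5 called 12 members higher and 10 lower in forebrain, 13 and 8 in midbrain and 11 and 9 in hindbrain. Of all genes, 30.9%, 33.4% and 28.0% were called in these comparisons, with 19.2%, 18.3% and 16.2% higher and 11.8%, 15.1% and 11.8% lower. The median absolute log2 difference was 1.01, 0.99 and 0.89 over the members and 0.61, 0.67 and 0.58 over all genes. The comparisons are of separate libraries in each region. There were 9 members higher at P0 in all 3 regions (Meg3, Rian, Calcr, Ndn, Inpp5f, Zrsr1, Usp29, Nap1l5 and Snrpn) and 7 lower in all 3 (H19, Plagl1, Grb10, Igf2r, Cdkn1c, Mest and Peg12). The share of all genes called alike in all 3 regions was not taken. No member was called in opposite directions between regions, out of 26 called in at least 1 region by limma. In midbrain, P0 and the Rps27 class changed together and can be told apart only through the mixed hindbrain P0 pair, and with that class as a term the counts were 12 and 9. The neuron list rose with the first set, 8, 7 and 4 of its 8 genes being higher at P0 in forebrain, midbrain and hindbrain. Its summed level in forebrain was 5408.3 to 6005.1 TPM at P0, against 1298.7 to 1320.5 TPM for E11.5, and its part in these changes was not tested. With the falling set, 7, 7 and 4 of 8 neural progenitor markers were lower and 1, 1 and 2 higher (medians -2.09, -2.09 and -1.08). Of 10 erythroid markers, 9 were lower and 1 higher in each region. The summed progenitor level in forebrain was 2183.73 to 2271.45 TPM at P0, against 3065.71 to 3264.29 TPM for E11.5, and in hindbrain it was 3267.01 to 3275.54 TPM at P0, against 3379.38 to 3397.92 TPM for E11.5. The summed erythroid level in forebrain was 1157.22 to 1399.17 TPM at P0, against 14787.52 to 14902.55 TPM for E11.5. The part of these lists in the falls was not tested.

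In liver the balance was different: 4 members were higher at P0 than at E11.5 (Igf2, H19, Slc22a18 and Dcn) and 25 were lower, where 46.3% of all genes were called, 8.14% higher and 38.2% lower. The median difference was -1.29 over the members and -0.69 over all genes. With median-of-ratios scaling the median of all genes was -0.01 and the members were 6 higher and 13 lower, and with quantile normalization it was -0.18 with 3 higher and 16 lower. The calls of 16 members stood under all 3 scalings, with Igf2, Slc22a18 and Dcn higher and 13 lower, among them Nnat, Asb4, Peg10, Dlk1 and Cdkn1c. For the other scalings the share of all genes called is again not given. Between E16.5 and P0 alone, 2 members were higher in liver (Peg3 and Dcn) and 10 lower, where 9.4% of all genes were called, 5.75% higher and 3.65% lower. Over that step the summed erythroid list was 79744.48 to 85841.95 TPM at P0 and 245365.4 to 246526.85 TPM at E16.5. Of 12 hepatocyte markers 6 were higher and 0 lower (median 1.17). Of 10 skeletal muscle and cartilage markers 0 were higher and 4 lower (median -0.525), with mean Actc1 at 1.03 TPM, against 32.04 TPM for E16.5. The part of these lists was not tested. The fibroblast and meninges list also fell in liver, with 8 of 10 genes lower and 1 higher at P0 than at E11.5. Its sum was 151.5 to 182.33 TPM at P0, against 547.63 to 578.52 TPM for E11.5. The list's member Foxd1 was at 0 in both P0 libraries. Of 10 skeletal muscle and cartilage markers 6 were lower and 1 higher in liver at P0 than at E11.5 (median -1.21). The part of either list was not tested.

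The P0 minus E11.5 change itself was compared between brain, averaged over regions, and liver. It differed for 35 of the 42 members, 28 being more positive in brain and 7 more negative, where 47.9% of all genes differed (38.6% more positive and 9.32% more negative). The largest was that of Nnat, at 5.76 ± 0.15, followed by Ndn at 4.94 ± 0.13 and Snrpn at 4.81 ± 0.11. H19 was the most negative, at -3.49 ± 0.26. Under both other scalings 26 of the 35 calls stood, 19 more positive and 7 more negative. The share of all genes whose calls stood is not given. A change in some stage was found for 32, 31, 29 and 35 members in forebrain, midbrain, hindbrain and liver, where 51.9%, 53.7%, 50.8% and 63.6% of all genes changed.

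Between brain regions, 1 member was called in forebrain against midbrain, 3 in forebrain against hindbrain and 0 in midbrain against hindbrain. Averaged over E11.5 to P0, Nap1l5 was lower in forebrain than in midbrain by 1.39 ± 0.05 and lower in forebrain than in hindbrain by 1.56 ± 0.05 on the log2 scale. H19 and Igf2 were also lower in forebrain than in hindbrain, by 1.16 ± 0.09 and 1.07 ± 0.10. Mean TPM was 45.5 in forebrain, against 130.6 in midbrain and 151.4 in hindbrain, for Nap1l5. Of all genes 2.73% were called between forebrain and midbrain (0.96% higher and 1.77% lower in forebrain) and 4.32% between forebrain and hindbrain (1.03% higher and 3.28% lower). Between midbrain and hindbrain it was 0.97%, with 0.252% higher and 0.718% lower in midbrain. At an unadjusted p below 0.05, limma found 36, 39 and 26 members in these comparisons. The share of all genes at that threshold was not taken, so these counts are not read as a trait of the members. The median absolute log2 difference was 0.32, 0.40 and 0.12 over the members and 0.17, 0.20 and 0.07 over all genes. Leaving out the E15.5 libraries, whose labels are in doubt, gave the same counts of 1, 3 and 0. Calcr was at the edge, at -0.93 between forebrain and midbrain, and passed at -1.07 without the E12.5 libraries. The calls of H19 and Igf2 did not stand with the Rps27 class as a term. Markers of other tissues moved the same way between forebrain and hindbrain. Of 10 skeletal muscle and cartilage markers 4 were lower in forebrain (median -0.91), with Actc1 at -2.37, and over all stages their sum was 25.19 to 185.36 TPM in forebrain and 31.6 to 443.43 TPM in hindbrain. Of 10 fibroblast and meninges markers 2 were lower in forebrain (median -0.86), with sums of 147.52 to 1138.87 TPM in forebrain and 201.06 to 1780.47 TPM in hindbrain. At E11.5 to P0 no marker of either list was at 0 throughout a forebrain or hindbrain group. Their part in the differences of H19 and Igf2 was not tested.

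**Figure D5:**
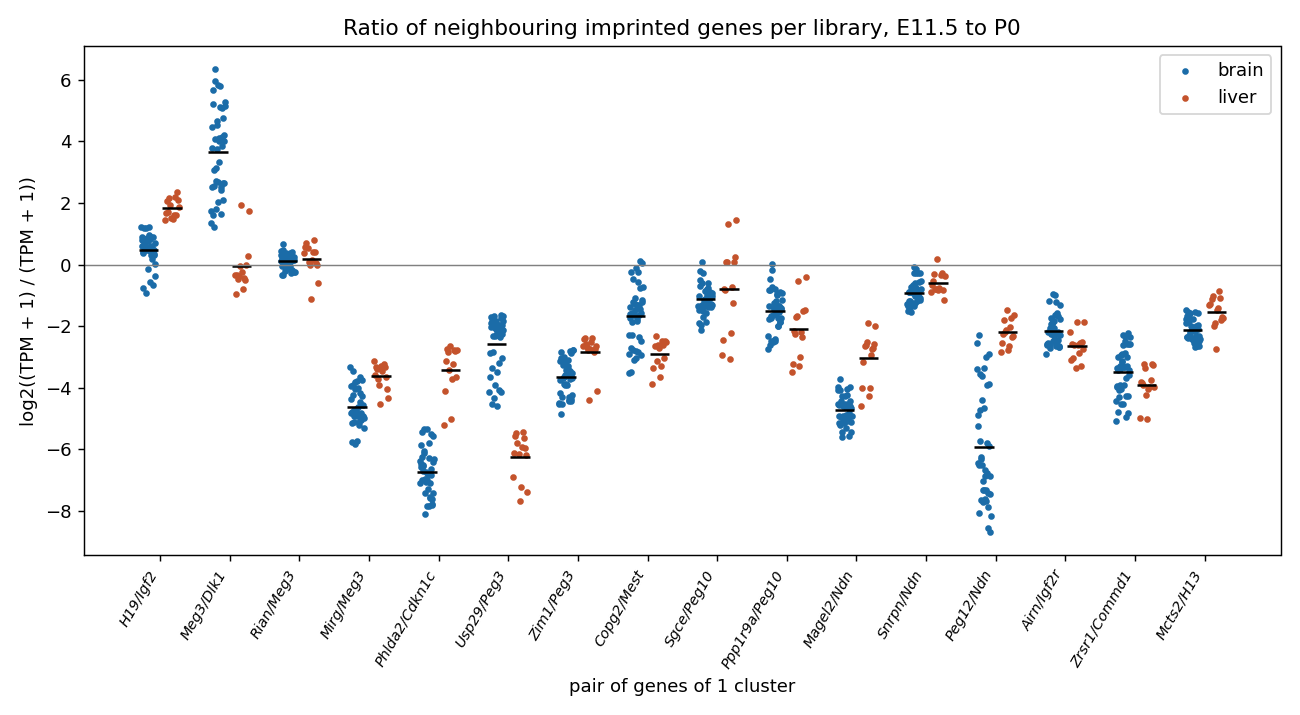
Log2 ratio of 16 pairs of genes within a cluster in each library of E11.5 to P0. For each pair the 42 brain libraries are on the left in blue, the 14 liver libraries on the right in red, and the bar is the mean. The libraries do not overlap for H19/Igf2, Phlda2/Cdkn1c and Usp29/Peg3.

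Across the 16 pairs of neighbours, 14 had a different mean ratio in brain and liver at an adjusted p below 0.05, and for 3 the libraries did not overlap. Pairs of other genes were not tested, and 53.3% of all genes were called between brain and liver. The count is therefore not read as a trait of imprinted neighbours. Only the pairs Rian/Meg3 and Sgce/Peg10 did not pass. The smallest passing differences were Snrpn/Ndn at -0.32, Zrsr1/Commd1 at 0.40 and Airn/Igf2r at 0.51. The ratio of Magel2 to Ndn was lower in brain by 1.68, but liver Magel2 was at most 0.91 TPM, below the pseudocount of 1, and with a pseudocount of 0.1 the sign turned to 0.33. Liver Usp29, at most 0.51 TPM, and brain Phlda2, at most 1.69 TPM, were also near or below the pseudocount of 1. The sizes of the Usp29/Peg3 and Phlda2/Cdkn1c differences therefore depend on it. In opposite-strand pairs and nested genes such as Mcts2 and H13 (difference -0.59) the split of reads is uncertain.

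Other imprinted genes outside the members were read as a further list. Of 29 tested, 15 were higher and 4 lower in brain than in liver, with a median of 1.09, near the all-gene shares of 44.0% higher and 9.33% lower and median of 0.82. Snhg14, the noncoding RNA that runs against Ube3a, was higher by 6.55 ± 0.06, and Tspan32, a tetraspanin, and Tfpi2, a protease inhibitor, were lower by 4.74 ± 0.04 and 4.19 ± 0.05. At P0 against E11.5, 11, 11 and 10 were higher and 3, 2 and 2 lower in forebrain, midbrain and hindbrain. Of all genes, 19.2%, 18.3% and 16.2% were higher and 11.8%, 15.1% and 11.8% lower in these comparisons. Rasgrf1, a Ras exchange factor, rose by 4.24, 4.14 and 4.85, and Kcnk9, a potassium channel, by 2.98, 3.34 and 4.17. In liver 2 were higher and 13 lower, where 8.14% and 38.2% of all genes were, with Slc38a4, an amino acid transporter, rising by 2.15 ± 0.19. Of 14 related copies of members tested, 8 were higher and 1 lower in brain than in liver, with a median of 1.17. The all-gene shares were 44.0% higher and 9.33% lower, with a median of 0.82. Dlk2, the paralog of Dlk1, rose by 4.12, 4.31 and 3.39 in forebrain, midbrain and hindbrain.

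Of 15 genes of the insulin-like growth factor axis, 6 were higher and 2 lower in brain than in liver. That count is at the share of all genes called, 53.3%, so only single genes are described. Igf1r, the receptor through which IGF2 signals, had a mean of 21.06 TPM across brain, against 4.249 TPM for liver, a difference of 2.18 ± 0.05. Igfbp1, a binding protein of liver, was lower in brain by 6.54 ± 0.08. Over the stages 4 of the 15 were higher and 5 lower in liver at P0, where 8.14% of all genes were higher and 38.2% lower. Mean Igfbp1 in liver was 3953 TPM at P0, against 37.59 TPM for E11.5. Mean Igfbp2 was 1864 TPM at P0, against 35.32 TPM for E11.5. Igf2bp1, an RNA-binding protein of fetal cells named for Igf2 mRNA, fell in all 4 tissues, by 4.09, 4.76, 3.96 and 3.88.

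Factors that keep imprints in place were read last. Of 13 tested, 6 were higher and 1 lower in brain than in liver, a count near the 53.3% of all genes called. Zfp57, which binds the hexamer given above, had a mean of 207.1 TPM across brain, against 8.684 TPM for liver, a difference of 4.85 ± 0.04 (adjusted p = 4.54e-46), with no overlap. Ehmt2, a histone methyltransferase, Zfp445, a zinc finger factor that also protects imprints, and Dnmt3a, a de novo DNA methyltransferase, were higher by 2.26, 2.17 and 1.80. In liver all 13 were lower at P0 than at E11.5, where 38.2% of all genes were, with a median of -1.70 against -0.69 over all genes. Lists outside the members, this one among them, were not read under the scaling alternatives. Those alternatives moved the median of all genes in brain against liver and in liver P0 against E11.5. Zfp57 had 2.57 and 3.33 TPM at P0, against 32.35 and 31.79 TPM at E11.5, and Trim28, its corepressor, fell by 2.57 ± 0.11. Uhrf1, which brings the maintenance methyltransferase to newly copied DNA, fell in all 4 tissues, by 4.20, 4.76, 2.70 and 2.18 in forebrain, midbrain, hindbrain and liver. In brain 5, 7 and 4 of the 13 were lower at P0 in forebrain, midbrain and hindbrain, where 11.8%, 15.1% and 11.8% of all genes were. Zfp57 was higher in forebrain by 1.09 ± 0.11.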

How the data were processed

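The labels' protocols describe a stranded mRNA library kit and 4 µg of RNA per library. The values are TPM deposited by the authors, made with STAR 2.4.0k and RSEM 1.2.23 on mm10 per the submitters' processing notes. The strand setting is not given in the sources used here. TPM keeps no sequencing depth, so depth is unknown and no counting interval was given. Each library had 12104 to 15561 genes at 1 TPM or more, and its column sum was 997627 to 1000000.

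Identifiers were matched to GENCODE symbols. Rows at 1 TPM in 2 libraries were analysed as log2(TPM + 1), so a fold change understates that of low genes. One limma 3.58.1 fit (R 4.3.3) took 1 mean per tissue and stage over 61 libraries, with 30 residual degrees of freedom and a mean-variance trend. Benjamini-Hochberg adjustment was over 18655 genes in each contrast, and a call needed adjusted p below 0.05 and an absolute log2 change of at least 1. The pipeline was tested on simulated data. Pairs within a cluster were compared by a two-sided permutation test of 100000 resamples within stage (numpy 2.4.6). Coordinates are mm10, and promoters and microRNAs are from RefSeq on GRCm38.p6.

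The members, gene lists and pairs were chosen with earlier results of these data known, so no list is independent evidence. All members were accounted for. Per-library values are given for the leading member of each cluster and for paired genes, and from each other list up to 4 called genes with the largest change. Of the marker lists, the hepatocyte, erythroid, neuron, neural progenitor, skeletal muscle and cartilage, and fibroblast and meninges lists are reported. Alternatives were pseudocount 0.1, no filter, median-of-ratios and quantile scaling, a replicate block, other handling of the 4 columns, libraries or stages left out, and, chosen after seeing the data, the Rps27 class.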

Additional observations from a re-analysis of the deposited data

Results flagged for a closer look

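The change between E11.5 and P0 differed between brain (mean of the 3 regions) and liver for 35 members by the limma contrast of the changes, adjusted over all genes, where 47.9% of all genes differed. Values are the change in brain minus the change in liver on the log2(TPM + 1) scale.

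The change was more positive in brain for Nnat (5.76), Ndn (4.94), Snrpn (4.81), Rian (4.23), Nap1l5 (4.22) and Asb4 (3.81). Peg10 (3.38), Meg3 (3.34), Usp29 (3.02), Zim1 (2.99), Inpp5f (2.87) and Mirg (2.79) followed. Gnas (2.36), Calcr (2.33), Dlk1 (2.30), Ppp1r9a (2.10), Impact (1.99) and Trappc9 (1.95) came next. Smaller differences in the same direction were found for Airn (1.86), Cd81 (1.69), Zrsr1 (1.58), Cdkn1c (1.56), Zdbf2 (1.33), Igf2r (1.28), Phlda2 (1.27), Magel2 (1.18), Mkrn3 (1.08) and Plagl1 (1.06). Among these smaller ones only Magel2 was also called under both other scalings.

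The change was more negative in brain for H19 (-3.49), Grb10 (-2.30), Igf2 (-1.60), Mest (-1.34), Peg12 (-1.31), Dcn (-1.23) and Slc22a18 (-1.22). The change of Slc22a18 was not called without the second liver P0 library, and that of Plagl1 was 0.92 to 0.98, below the fold threshold, without either the first forebrain E11.5 or the first liver P0 library. The cause of these differences was not tested.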

How the results depend on the processing

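The count of members called in brain against liver was 29 as reported, 22 and 24 under the scalings, 27 and 28 within the low-Rps27 and high-Rps27 libraries and 29 under the others. Counts under the alternatives are of members only, without the share of all genes. Members called in forebrain against midbrain went to 2 with pseudocount 0.1 and 2 without the E12.5 libraries. In forebrain against hindbrain they were 5 within the low-Rps27 libraries and 1 with the Rps27 class as a term, and in midbrain against hindbrain 1 within the low-Rps27 libraries. Liver P0 against E11.5 gave 19 under median-of-ratios scaling and 19 under quantile normalization. Members with any stage change numbered 20 in midbrain within the low-Rps27 libraries and 12 in liver within the high-Rps27 libraries, where fewer stages were left. Signs reversed for Cd81 (-0.12) and Mcts2 (-0.069) in brain against liver and for Commd1 (0.10) in liver P0 against E11.5 under median-of-ratios scaling. Under quantile normalization they reversed for Mcts2 (-0.051) and for the change difference of Plagl1 (-0.019), and with pseudocount 0.1 for the Magel2/Ndn ratio (0.33). The cause was not tested. Of 2787 uncalled member values under the alternatives, 103 had the other sign.

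Leaving out 1 library at a time gave 29 to 29 in brain against liver, 1 to 2, 2 to 3 and 0 to 0 between regions (forebrain against midbrain, forebrain against hindbrain, midbrain against hindbrain), and 19 to 22, 21 to 22, 19 to 21 and 29 to 29 at P0 against E11.5 in forebrain, midbrain, hindbrain and liver. It gave 34 to 36 for the difference of changes, 10 to 12 for liver P0 against E16.5, 27 to 33, 31 to 32, 28 to 31 and 34 to 35 for any stage change, and 14 to 15 for the pairs. Replicate numbers did not pair the libraries (325 pairs of groups, r from -0.63 to 0.32, median 0.003), and with the replicate block 29 members were called in brain against liver. With the block, which left out the columns with no number, Igf2 in forebrain against hindbrain (-0.99) and Peg10 (-0.92) and Trappc9 (0.89) in hindbrain P0 against E11.5 were not called and Igf2 in hindbrain (-1.48) was; no other member call changed and no count moved by over 1.5 times. Liver P0 calls of Meg3, Peg10, Nnat and Zrsr1 against E16.5 were lost without 1 library. Depth is unknown, and groups of 2 libraries limit the precision of single stages.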
